A study of Homo sapiens with 18 samples.

Results

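The 18 libraries of the series were divided into 9 of cultures with high JAG1 and 9 of cultures with low JAG1. The JAG1-high cultures were Jag1WT, siCtrl and Jag1KO + rescue, and the JAG1-low cultures were Jag1KO, siJag1 and Jag1KO + ctrl, with 3 replicates each. The labels alone chose the libraries, and all 18 of 18 were used. The question was which mRNAs followed JAG1 in every one of the 3 systems that changed it, called knockout, siRNA and plasmid below.

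All cultures were MDA-MB-231 cells, an established triple-negative breast cancer (TNBC) line, grown as spheroids in 3D Matrigel and collected on day 7 after seeding 50000 cells. In the knockout system the unmodified parental line (Jag1WT) was compared with Jag1KO, an equal mixture of single-cell clones whose JAG1 gene had been cut by Cas9 in its second exon. In the siRNA system the parental cells received a nontargeting siRNA (siCtrl) or a mixture of siRNAs against JAG1 (siJag1) shortly before seeding. In the plasmid system both groups were Jag1KO cells under G418 selection, which carried pcDNA3.1 with Jagged1 cDNA (Jag1KO + rescue) or the empty plasmid (Jag1KO + ctrl). The plasmid cultures therefore share the knockout and the clone mixture on both sides, and the siRNA cultures share the parental background. No library belonged to more than 1 system. The system was fitted as a block, so that each high library was in effect compared with the low libraries of its own system.

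Jagged1, the product of JAG1, is a membrane-bound ligand of the Notch receptors. When a neighbouring cell's receptor binds it, the receptor is cut, and its intracellular part travels to the nucleus, joins the DNA-binding protein RBPJ and switches on target genes, of which HES1 is the best known. HES1 is itself a transcriptional repressor. In breast cancer, Jagged1 is known for its association with aggressive, hormone receptor-negative tumors.

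Levels are given as CPM, reads of a gene scaled to the size of its library, for which the authors used the trimmed mean of M values (TMM). Differences are given on the scale of log2(CPM + 1) as JAG1 high minus JAG1 low, so that a positive value goes with more JAG1. The offset of 1 CPM makes the change of genes with few reads look smaller than it was. A gene was tested if it passed 1 CPM in 9 or more libraries, which 12803 of the 21411 genes in the table did. A gene was called when the Benjamini-Hochberg adjusted p of limma was below 0.05 and the fold change above 1.5. CPM do not correct for the length of a transcript, so levels are compared mainly between cultures. Where a gene is called abundant or scarce, this refers to its CPM alone.

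Between 10330581 and 18327890 reads were counted on genes in each library, and the counts of replicates of 1 group differed by more than sampling noise in every pair. The labels call the replicates biological. The markers VIM, CD44, EGFR and AXL, which MDA-MB-231 cells are known to express, were at 285 CPM or more in every library, whereas SPARC, a matrix protein on the same list, was at most at 1.24 CPM. ESR1, the estrogen receptor, was listed at 0 in 17 of the 18 libraries. Defining markers of 3 other cell types were near 0, with at most 0.196 CPM for the leukocyte gene PTPRC, 0.0955 CPM for the endothelial gene CDH5 and 0.130 CPM for the fibroblast gene DCN. Some genes on those lists were expressed, namely PECAM1 (0.954 to 15.1 CPM), KDR (5.74 to 16.9 CPM), COL1A1 (2.66 to 10.0 CPM) and CD14 (1.23 to 4.99 CPM). So were the luminal epithelial genes KRT18 (127 to 162 CPM), KRT8 (31.0 to 149 CPM) and GATA3 (5.25 to 11.5 CPM). Of the smooth muscle and pericyte list, RGS5 (4.13 to 10.9 CPM) and CSPG4 (3.84 to 18.7 CPM) were expressed.

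JAG1 was the gene the designs changed, and it followed the labels in each of the 18 libraries. The Jag1WT libraries had 433, 585 and 522 CPM of JAG1 (replicates 1 to 3) and the Jag1KO libraries 116, 205 and 149 CPM. In siCtrl the levels were 441, 626 and 531 CPM, and in siJag1 166, 203 and 131 CPM. With the Jagged1 plasmid they were 534, 657 and 646 CPM, which include reads of the plasmid's cDNA, and with the empty plasmid 110, 134 and 147 CPM. All 9 high libraries lay above all 9 low ones, and 1559 or more reads of JAG1 were left in every low library. In Jag1KO and Jag1KO + ctrl these are reads of the cut gene, whose loss the authors checked by sequencing and Western blot. The mRNA levels therefore do not give the amount of Jagged1 protein and cannot rank the systems by it. The pooled log2 difference was 1.88 ± 0.127 (standard error; limma adjusted p = 2.01e-07), a 3.68-fold higher level. A two-sided exact permutation test over the 8000 assignments of high and low inside the systems gave p = 0.00025, the smallest p this design allows. The differences in the knockout (1.73), siRNA (1.68) and plasmid (2.23) systems did not differ by the test of their interaction (limma adjusted p = 0.38).

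**Figure D1:**
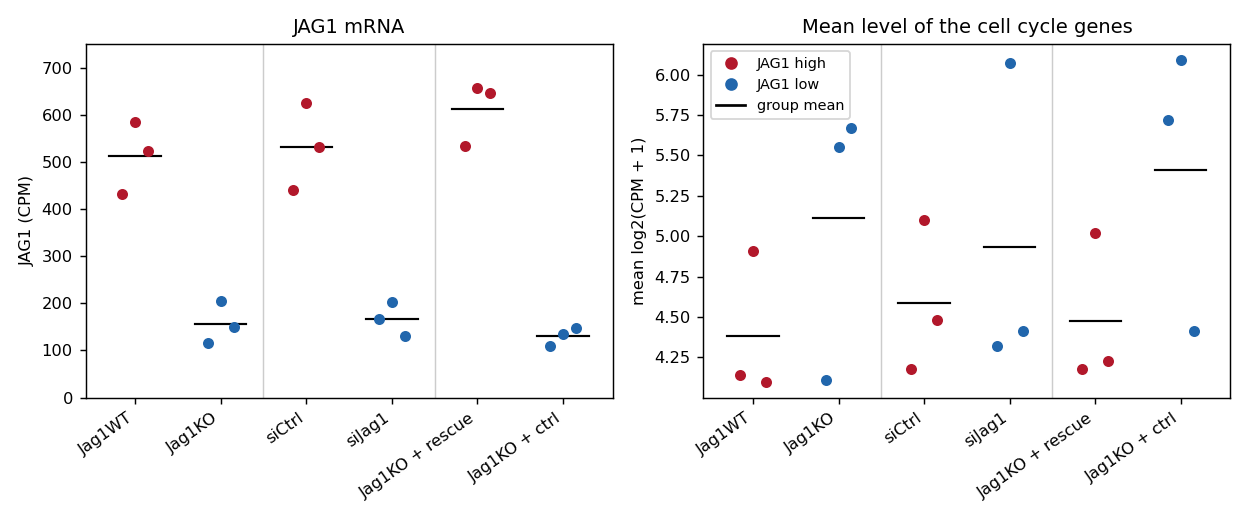
The left panel plots JAG1 in CPM and the right panel the mean log2(CPM + 1) of 97 cell cycle genes, with 1 point per library, 3 libraries per group and a bar at the group mean. JAG1 lay between 433 and 657 CPM in the high libraries and between 110 and 205 CPM in the low ones, whereas the cell cycle level overlapped between high (4.10 to 5.10) and low libraries (4.11 to 6.09).

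Across the 3 systems 29 genes were higher and 20 lower with JAG1, the 29 including JAG1 itself, which the designs changed. These are 0.227% and 0.156% of the 12803 genes tested. All 29 and all 20 had the same sign in the knockout, siRNA and plasmid systems, which without any test held for 17.6% (upward) and 19.2% (downward) of the genes tested. Inside each system, the 3 high libraries lay apart from the 3 low ones in the same direction for 15 of the 29 and 14 of the 20 called genes, against 0.289% and 0.258% of all genes tested. In 10 of the 49 called genes the 9 high libraries did not overlap the 9 low ones even across systems, which was so for 0.0937% (higher) and 0.0469% (lower) of all genes. These 10 were JAG1, SERPINB9, SFTA1P, SPHK1 and F2RL1 among the genes higher with JAG1, and ADGRF1, ADGRF5, SECTM1, MSLN and GAS6 among those lower. In a fit of the 6 groups, in which each system was tested alone with a spread shared by all 18 libraries, 3 genes (0.0234%) passed both thresholds in each of the systems: JAG1, COL6A3 and SERPINB9, all higher with JAG1.

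The 3 systems did not contribute equally. Over the 49 called genes the median size of the log2 difference was 1.03 in the knockout, 0.906 in the plasmid and 0.676 in the siRNA system. The siRNA system gave the smallest difference for 31 of the 49 and the largest for 0, whereas the knockout gave the largest for 28 and the plasmid for 21. Called genes tended to have low CPM, with a median of 15.2 CPM against 26.7 CPM over all genes tested, values that transcript length also affects.

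**Figure D2:**
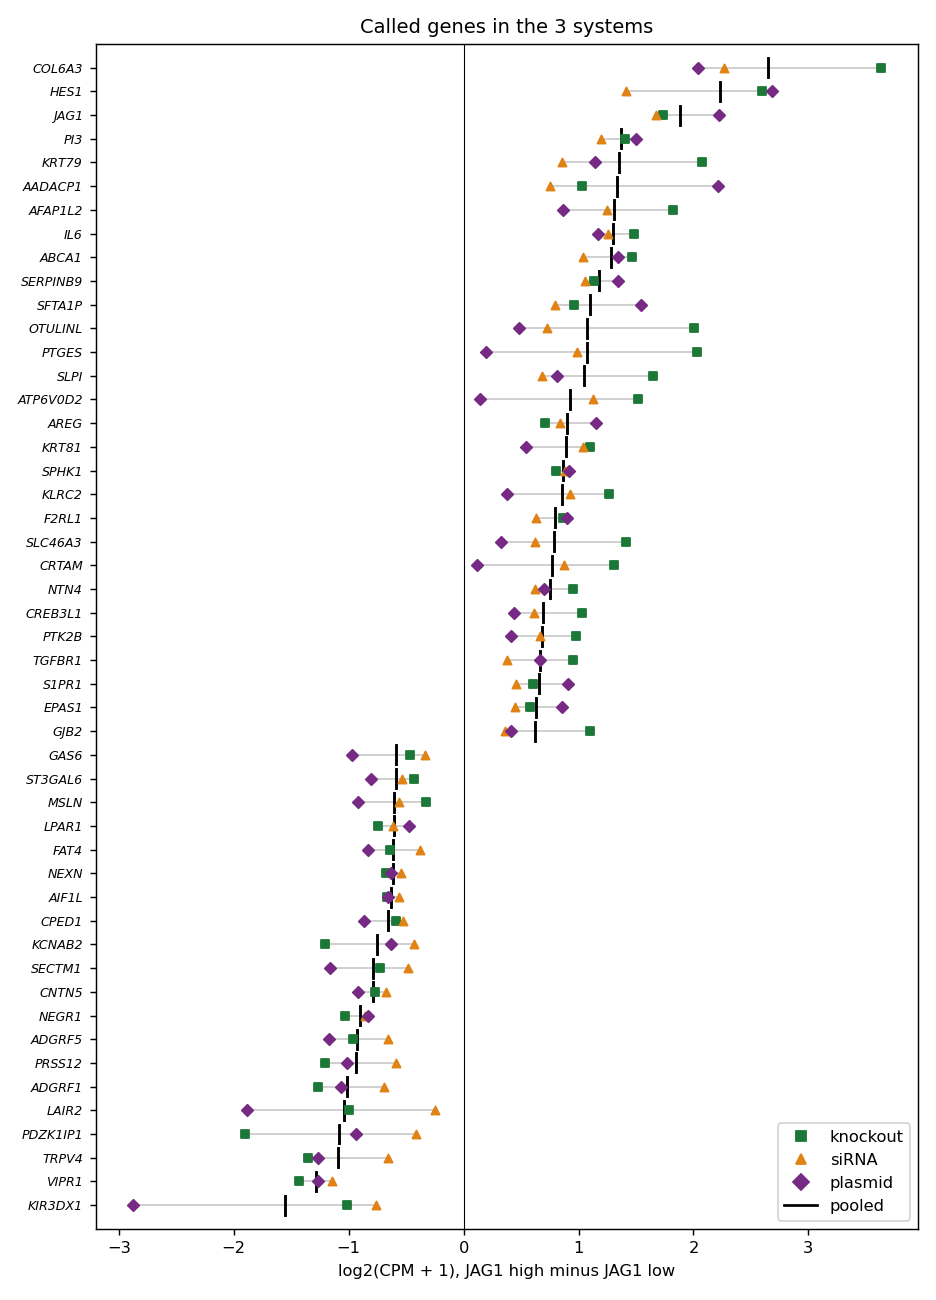
Each row is 1 of the 49 called genes, with the difference of log2(CPM + 1), JAG1 high minus JAG1 low, in the knockout, siRNA and plasmid systems (3 libraries against 3 each) and a bar at the pooled difference. Every marker of the upper 29 genes lies right of 0 and every marker of the lower 20 left of it, from 3.63 for COL6A3 in the knockout to −2.88 for KIR3DX1 in the plasmid system.

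COL6A3 (Entrez gene 1293; chromosome 2, 237324018 to 237414164 in GRCh38.p14), which encodes the alpha-3 chain of collagen VI, an extracellular matrix protein that forms microfibrils, had the largest difference of the called genes. Its levels were 63.1, 73.0 and 83.9 CPM in Jag1WT and 5.22, 4.79 and 4.87 CPM in Jag1KO. In siCtrl they were 80.3, 88.0 and 73.8 CPM and in siJag1 22.4, 15.1 and 11.9 CPM. The plasmid system lay at a lower range, with 11.0, 22.5 and 21.0 CPM in Jag1KO + rescue and 3.06, 4.55 and 2.95 CPM in Jag1KO + ctrl. No group overlapped its partner, but the rescued cultures stayed below every Jag1WT and siCtrl culture. The pooled log2 difference was 2.65 ± 0.213 (standard error; limma adjusted p = 1.84e-06), a 6.26-fold higher level. Its size differed between the systems, with 3.63 in the knockout, 2.27 with the siRNA and 2.04 with the plasmid (interaction, limma adjusted p = 0.0328).

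HES1 (Entrez gene 3280; chromosome 3, 194136148 to 194138732), the Notch target and repressor, came next. It had 13.4, 11.2 and 22.3 CPM in Jag1WT against 3.72, 0.927 and 1.05 CPM in Jag1KO, and 12.7, 13.2 and 13.9 CPM in siCtrl against 5.50, 3.30 and 4.48 CPM in siJag1. The rescued cultures spread widely, with 22.4, 4.88 and 9.97 CPM, against 0.659, 0.240 and 1.74 CPM with the empty plasmid, where 4 to 29 reads were counted. In each system the groups did not overlap, although Jag1KO + rescue replicate 2 (4.88 CPM) lay below siJag1 replicate 1 (5.50 CPM). The pooled log2 difference was 2.23 ± 0.276 (limma adjusted p = 0.000338), with 2.59, 1.42 and 2.69 in the knockout, siRNA and plasmid systems (interaction, limma adjusted p = 0.322).

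The promoter windows of the 6 genes with the largest rise are shown, taken among those whose groups did not overlap in any system and whose window was at hand, because RBPJ is the factor through which Notch acts on DNA. They are RefSeq sequences of GRCh38.p14, 250 bases before to 50 after the annotated start, written 5′ to 3′ on the gene's strand. Capitals mark the RBPJ core TGGGAA or its reverse complement.
HES1, chr3:194135898-194136197, plus strand: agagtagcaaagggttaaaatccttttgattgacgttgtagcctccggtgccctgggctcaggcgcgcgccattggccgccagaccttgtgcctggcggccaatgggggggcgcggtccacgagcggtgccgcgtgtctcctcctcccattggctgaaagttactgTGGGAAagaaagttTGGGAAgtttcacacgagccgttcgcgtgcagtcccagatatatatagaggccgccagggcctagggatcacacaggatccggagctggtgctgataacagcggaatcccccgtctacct
COL6A3, chr2:237414115-237414414, minus strand: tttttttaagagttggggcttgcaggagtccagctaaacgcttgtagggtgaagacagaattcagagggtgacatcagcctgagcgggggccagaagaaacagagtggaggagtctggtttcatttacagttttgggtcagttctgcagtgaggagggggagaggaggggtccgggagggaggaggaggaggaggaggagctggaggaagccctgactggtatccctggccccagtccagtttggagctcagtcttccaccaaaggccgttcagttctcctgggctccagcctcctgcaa
JAG1, chr20:10673950-10674249, minus strand: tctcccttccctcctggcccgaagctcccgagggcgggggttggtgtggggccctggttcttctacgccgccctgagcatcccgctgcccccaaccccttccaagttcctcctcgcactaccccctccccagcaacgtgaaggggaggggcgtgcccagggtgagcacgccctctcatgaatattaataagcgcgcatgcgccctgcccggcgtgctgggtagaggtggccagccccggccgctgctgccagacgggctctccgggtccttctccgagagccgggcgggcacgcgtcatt
KRT79, chr12:52834262-52834561, minus strand: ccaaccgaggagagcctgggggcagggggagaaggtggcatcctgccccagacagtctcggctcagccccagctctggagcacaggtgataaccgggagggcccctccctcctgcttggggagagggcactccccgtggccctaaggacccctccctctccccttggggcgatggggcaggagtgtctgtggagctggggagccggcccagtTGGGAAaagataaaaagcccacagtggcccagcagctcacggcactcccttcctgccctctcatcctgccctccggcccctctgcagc
AFAP1L2, chr10:114404453-114404752, minus strand: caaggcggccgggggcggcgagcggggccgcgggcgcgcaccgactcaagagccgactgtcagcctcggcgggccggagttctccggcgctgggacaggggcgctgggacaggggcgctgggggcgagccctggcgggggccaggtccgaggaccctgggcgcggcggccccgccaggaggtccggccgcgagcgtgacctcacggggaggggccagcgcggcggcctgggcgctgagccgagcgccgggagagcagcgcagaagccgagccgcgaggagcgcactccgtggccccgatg
ABCA1, chr9:104928106-104928405, minus strand: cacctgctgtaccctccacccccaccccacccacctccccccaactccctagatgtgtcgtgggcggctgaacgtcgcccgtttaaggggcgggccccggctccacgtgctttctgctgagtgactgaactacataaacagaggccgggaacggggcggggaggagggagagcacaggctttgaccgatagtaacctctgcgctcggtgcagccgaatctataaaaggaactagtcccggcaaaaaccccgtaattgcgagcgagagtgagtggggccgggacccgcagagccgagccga
The HES1 window held 2 cores, starting 84 and 70 bases before the annotated start, and the KRT79 window held 1, starting 38 bases before it. The windows of COL6A3, JAG1, AFAP1L2 and ABCA1 held none of these letters. JAG1 is among the 6 by the rule, although the designs changed it directly. Among the 27305 promoter windows at hand, 24.3% held the core, and of the 10168 of tested genes 21.8%. Windows were at hand for 20 of the 29 genes higher with JAG1, of which 7 held it (HES1, KRT79, NTN4, GJB2, OTULINL, SERPINB9 and IL6), and for 13 of the 20 genes lower, of which 4 did (VIPR1, CNTN5, ADGRF5 and LPAR1). The longer site GTGGGAA, which contains the core, was in 2 of the 20 (HES1 and NTN4), in 1 of the 13 (VIPR1), in 6.28% of all windows and in 5.72% of those of tested genes. The letters TGANTCA of AP-1 sites were in 1 of the 20 (SPHK1), in 0 of the 13, in 7.76% of all windows and in 4.59% of those of tested genes. The N-box CACNAG, a sequence that HES factors bind, was in 3 of the 20 (4 matches in HES1, 1 each in SLC46A3 and AREG), in 9 of the 13, in 38.0% of all windows and in 34.7% of those of tested genes. Both strands were searched, a match of one motif could overlap a match of another, and the matches describe these windows only.

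The other genes of the Notch pathway had smaller differences than JAG1 and HES1 and were not called. JAG1 was 1 of 2 ligands tested, the other being JAG2, whose levels of 0.541 to 2.35 CPM differed by 0.14 on the log2 scale (limma adjusted p = 0.501). The receptor NOTCH2 had 418 to 510 CPM in the high libraries and 334 to 429 CPM in the low ones, a log2 difference of 0.24 (limma adjusted p = 0.127), and in each system its groups did not overlap. NOTCH1 differed by 0.45 (limma adjusted p = 0.203). Of 21 tested genes that process the receptor or act with it in the nucleus 0 were called by limma, edgeR or DESeq2 (5 had an unadjusted limma p below 0.05), 12 had a positive and 9 a negative difference, and their median was 0.03, against 0.00 over all genes tested. Of all 12803 genes tested, 2731 had an unadjusted limma p below 0.05. RBPJ differed by −0.01 and NCSTN, a subunit of the protease that cuts the receptor, by 0.08. Of the 7 Notch targets tested 1, HES1, was called, and all 7 pooled differences were positive with a median of 0.33 (0.10 with the cell cycle covariate), 4 of them in each system. HEY1 differed by 0.33, HES4 by 0.41, MYC by 0.33 and CCND1 by 0.06 (limma adjusted p from 0.173 to 0.763). MYC had the opposite sign in the knockout (−0.23) and CCND1 in the siRNA system (−0.03).

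**Figure D3:**
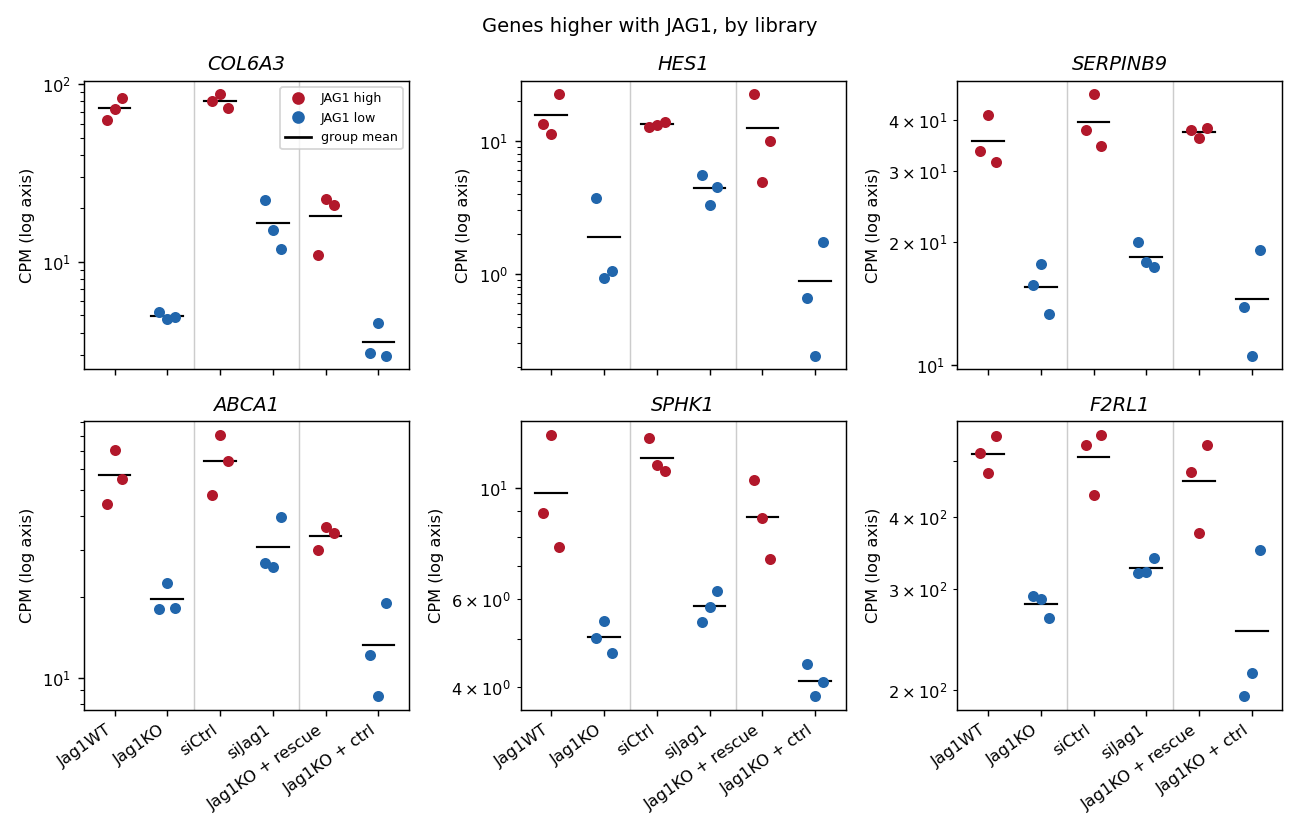
CPM of 6 genes higher with JAG1 on log axes, with 1 point per library, 3 libraries per group and a bar at the group mean. In each gene and system the 3 JAG1-high points lie above the 3 JAG1-low points, and for SERPINB9, SPHK1 and F2RL1 all 9 high points lie above all 9 low ones.

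SERPINB9 (Entrez gene 5272; chromosome 6, 2887270 to 2903309) encodes an intracellular inhibitor of granzyme B, the protease with which cytotoxic lymphocytes kill. It had 33.5, 41.2 and 31.6 CPM in Jag1WT and 15.7, 17.7 and 13.3 CPM in Jag1KO. In siCtrl it had 37.8, 46.3 and 34.6 CPM and in siJag1 20, 17.9 and 17.4 CPM. In Jag1KO + rescue the levels were 37.8, 36.2 and 38.2 CPM and in Jag1KO + ctrl 13.9, 10.5 and 19.1 CPM. The rescued cultures lay in the range of Jag1WT and siCtrl. SERPINB9 was 2.26-fold higher with JAG1 (log2 difference 1.18 ± 0.102, limma adjusted p = 4.14e-06), and the differences in the systems were 1.14, 1.05 and 1.34 (interaction, limma adjusted p = 0.722). It was the 1 called gene of 12 serpins tested, whose median was 0.17.

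Inhibitors of secreted proteases rose as well. SLPI and PI3, which encode the leukocyte elastase inhibitors SLPI and elafin, lie 75695 bases apart on chromosome 20. SLPI was scarce, with a range of 0.283 to 4.11 CPM (median 2.56) in the high and 0 to 2.15 CPM (median 0.287) in the low libraries, and its log2 difference was 1.05 (limma adjusted p = 0.00382). In Jag1KO + ctrl 0 to 3 reads of it were counted per library and in Jag1KO + rescue 4 to 21. PI3 had 1.34 to 7.57 CPM (median 6.54) in the high and 0.180 to 3.08 CPM (median 1.53) in the low libraries, a log2 difference of 1.37 (limma adjusted p = 0.0186), and its groups overlapped in the plasmid system.

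The list of protease-activated receptors, prostaglandin and sphingosine-1-phosphate (S1P) genes had 18 members tested, of which 4 were called higher and 1 lower, with a list median of 0.03. The called members were SPHK1, S1PR1, F2RL1 and PTGES (higher) and LPAR1 (lower), of which S1PR1, PTGES and LPAR1 lost the call with the cell cycle level as a covariate. SPHK1 (Entrez gene 8877; chromosome 17, 76383204 to 76387855), the kinase that makes S1P, had 8.90, 12.8 and 7.63 CPM in Jag1WT and 5.02, 5.41 and 4.68 CPM in Jag1KO. The siRNA system gave 12.6, 11.1 and 10.8 against 5.39, 5.79 and 6.22 CPM of SPHK1, and the plasmid system 10.4, 8.70 and 7.21 against 4.44, 3.83 and 4.09 CPM. All 9 high libraries lay above all 9 low ones. Its log2 difference was 0.87 ± 0.0936 (limma adjusted p = 7.22e-05) and nearly the same in each system, with 0.81, 0.88 and 0.92. S1PR1, a receptor of S1P, was scarce with 1.28 to 2.40 CPM in the high and 0.479 to 1.61 CPM in the low libraries, a log2 difference of 0.65 (limma adjusted p = 0.00939). The other S1P genes tested, SPHK2 (0.00), S1PR2 (0.23) and S1PR3 (−0.36), were not called.

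F2RL1 (Entrez gene 2150), which encodes protease-activated receptor PAR2, was abundant. It had 375 to 556 CPM (median 516) in the high and 195 to 351 CPM (median 291) in the low libraries, which did not overlap. Its log2 difference was 0.80 ± 0.102 (limma adjusted p = 0.000453), a 1.74-fold higher level. F2R, which encodes PAR1, differed by 0.39 (limma adjusted p = 0.0776). PTGES, the enzyme that makes prostaglandin E2, differed by 1.07 (limma adjusted p = 0.0442), but unequally, with 2.03 in the knockout, 0.98 in the siRNA and 0.19 in the plasmid system (interaction, limma adjusted p = 0.0425), and it kept its call in 6 of the 18 fits that left out 1 library. PTGS2, the inducible cyclooxygenase upstream of it, was abundant with 419 to 4870 CPM and was not called (log2 difference 0.59, limma adjusted p = 0.286). LPAR1, a receptor of lysophosphatidic acid, went the other way, with 36.3 to 70.1 CPM (median 46.5) in the high and 48.5 to 105 CPM (median 73.6) in the low libraries, a log2 difference of −0.61 (limma adjusted p = 0.00339). Its groups overlapped between systems but in no system.

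ABCA1 (Entrez gene 19; chromosome 9, 104781006 to 104928155), the transporter that moves cholesterol out of cells, had 44.4, 70.8 and 55.2 CPM in Jag1WT and 18.1, 22.5 and 18.2 CPM in Jag1KO. It had 48.0, 80.7 and 64.2 CPM in siCtrl and 26.7, 25.9 and 39.7 CPM in siJag1. With the Jagged1 plasmid the levels were 29.9, 36.5 and 34.6 CPM and with the empty one 12.2, 8.51 and 19.0 CPM. The groups did not overlap in any system, but siJag1 replicate 3 lay above each of the rescued cultures. ABCA1 was 2.43-fold higher with JAG1 (log2 difference 1.28 ± 0.145, limma adjusted p = 0.000126). ABCA1 was counted in the list on sterol and fatty acid synthesis, although it exports cholesterol and makes none, and it was the 1 called gene of that list. In the list 31 of the 35 genes tested had a negative difference and the median was −0.34 (−0.13 with the cell cycle covariate). DESeq2 called 7 of them lower and edgeR 0. Of the 31 negative differences, 24 were negative in each of the 3 systems. SCD, a fatty acid desaturase and the member with the highest CPM, was not called.

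The genes of the extracellular matrix did not follow COL6A3 as a group. Of 18 collagens tested COL6A3 was the 1 called by limma and by edgeR (DESeq2 called 1 higher and 2 lower), 9 had a positive and 9 a negative difference, and their median was 0.00, the same as over all genes. The medians of the collagens were 0.14 in the knockout, 0.32 with the siRNA and −0.34 with the plasmid. COL6A1, whose product assembles with that of COL6A3, differed by 0.68, 1.03 and −0.91 in the knockout, siRNA and plasmid systems, a pooled 0.27 (limma adjusted p = 0.455). COL18A1 had the same pattern with 1.77, 1.19 and −0.76, while COL5A1 differed by 0.63, 0.68 and −0.04. The collagens with the highest CPM, COL13A1 (−0.74) and COL4A2 (0.26), were not called, and COL8A1 had the most negative difference (−1.07, limma adjusted p = 0.104). COL6A1, COL18A1, COL5A1 and COL8A1 were singled out once their values were known.

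Of 15 integrins tested 0 were called by limma (edgeR 0, DESeq2 1 lower), and 9 had an unadjusted p below 0.05, 5 of them with a positive and 4 with a negative difference. Over all genes, 2731 of the 12803 tested had such a limma p. ITGA5 passed the adjusted p (0.043) but not the fold threshold, with a log2 difference of 0.53. ITGA3 and ITGB1, the integrins with the highest CPM, had 1370 to 2590 and 1290 to 1610 CPM. The integrin medians were 0.28 in the knockout, 0.11 with the siRNA and −0.39 with the plasmid. Of 40 other core matrix genes tested NTN4 was the 1 called by limma and by edgeR (DESeq2 called 2 higher and 2 lower). NTN4 encodes netrin-4, a secreted laminin-related protein of basement membranes, and had 72.9 to 145 CPM (median 121) in the high and 31.6 to 108 CPM (median 67.5) in the low libraries, a log2 difference of 0.75 (limma adjusted p = 0.00343). LAMB3, a laminin chain, was not called. Of 35 matrix-remodeling enzymes 0 were called by limma (edgeR 0, DESeq2 2 lower), and 11 had an unadjusted p below 0.05, 6 of them positive. MMP1, the collagenase with the highest CPM among them, ranged from 1150 to 9900 CPM and was not called (0.70, limma adjusted p = 0.255). BMP1, a protease that trims procollagens, passed the adjusted p alone (0.0325) with 0.83, 0.73 and −0.02 in the knockout, siRNA and plasmid systems.

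Of 38 genes of TGF-beta family signalling TGFBR1, the type I receptor of TGF-beta, was the 1 called. It had 93.5 to 132 CPM (median 119) in the high and 54.5 to 98.5 CPM (median 73.3) in the low libraries, a log2 difference of 0.66 (limma adjusted p = 0.00339). The differences of TGFBR1 were 0.95, 0.37 and 0.67 in the knockout, siRNA and plasmid systems, and its groups overlapped in the siRNA system. SMAD3, a transcription factor that this receptor activates, passed the adjusted p (0.00343) but with a log2 difference of 0.46 not the fold threshold, and its groups did not overlap in any system. TGFBR2, the type II receptor, had the highest CPM in this list and was not called. ITGA5, BMP1 and SMAD3 were likewise singled out by their values.

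IL6 was the 1 called gene of 35 cytokine and NF-kB genes tested. It had 142, 190 and 139 CPM in Jag1WT against 41.3, 67.0 and 59.7 CPM in Jag1KO, and 157, 191 and 242 CPM in siCtrl against 101, 41.7 and 124 CPM in siJag1. In the plasmid system the groups overlapped, with 42.9, 181 and 109 CPM against 50.9, 17.4 and 80.8 CPM. Its log2 difference was 1.30 ± 0.288 (limma adjusted p = 0.0453). The call held in 4 of the 18 fits that left out 1 library, with an adjusted p of up to 0.0999. CXCL8 and PTGS2, those with the highest CPM in the list, were not called.

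Other genes higher with JAG1 in each system without overlap were KRT79, AADACP1, AFAP1L2 and SFTA1P, besides CREB3L1 and EPAS1. KRT79, a type II keratin, had 1.70 to 9.37 CPM (median 5.44) in the high and 0.522 to 3.74 CPM (median 1.16) in the low libraries (log2 difference 1.36, limma adjusted p = 0.0032). AFAP1L2, an adaptor protein of Src family kinases, had 3.93 to 18.4 CPM (median 9.92) against 1.34 to 8.17 CPM (median 2.46), a log2 difference of 1.31 (limma adjusted p = 0.00138). AADACP1 and SFTA1P are transcribed pseudogenes, whose reads could be shared with related genes. Of these, SFTA1P had 23.7 to 36.1 CPM in the high and 7.67 to 21.0 CPM in the low libraries, with a log2 difference of 1.10 (limma adjusted p = 0.00343). AADACP1 differed by 1.33 (limma adjusted p = 0.00951), most in the plasmid system (2.21).

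The genes higher with JAG1 that complete the 29 are named because they passed the thresholds. Among them were AREG, a ligand of the EGF receptor (log2 difference 0.90), EPAS1, the hypoxia-inducible factor HIF-2 alpha (0.63), GJB2, the gap junction protein connexin 26 (0.62), PTK2B, a focal adhesion kinase (0.69), and CREB3L1, a membrane-bound transcription factor of the endoplasmic reticulum (0.69). KRT81 (0.89), a hair keratin with near-identical paralogs, and KLRC2 (0.85), a killer cell lectin receptor with near-identical paralogs, are uncertain because the counting could have split their reads. The others were OTULINL (1.07), ATP6V0D2 (0.93), SLC46A3 (0.79) and CRTAM (0.77). AREG had 97.2 to 253 CPM (median 140) in the high and 36.2 to 117 CPM (median 91.0) in the low libraries, which overlapped. The differences of CRTAM (0.12) and ATP6V0D2 (0.15) were smallest in the plasmid system. In the fit of 6 groups, AREG and EPAS1 passed in the plasmid system alone (limma adjusted p = 0.0254 and 0.00967). Neither passed in the knockout (limma adjusted p = 0.656 and 0.373) or in the siRNA system (0.998 for both). The other genes of this paragraph did not pass in the plasmid system (limma adjusted p from 0.0561 to 0.718). GJB2 in Jag1KO + rescue (13.7 to 14.6 CPM) even lay below Jag1KO (17.8 to 27.0 CPM).

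**Figure D4:**
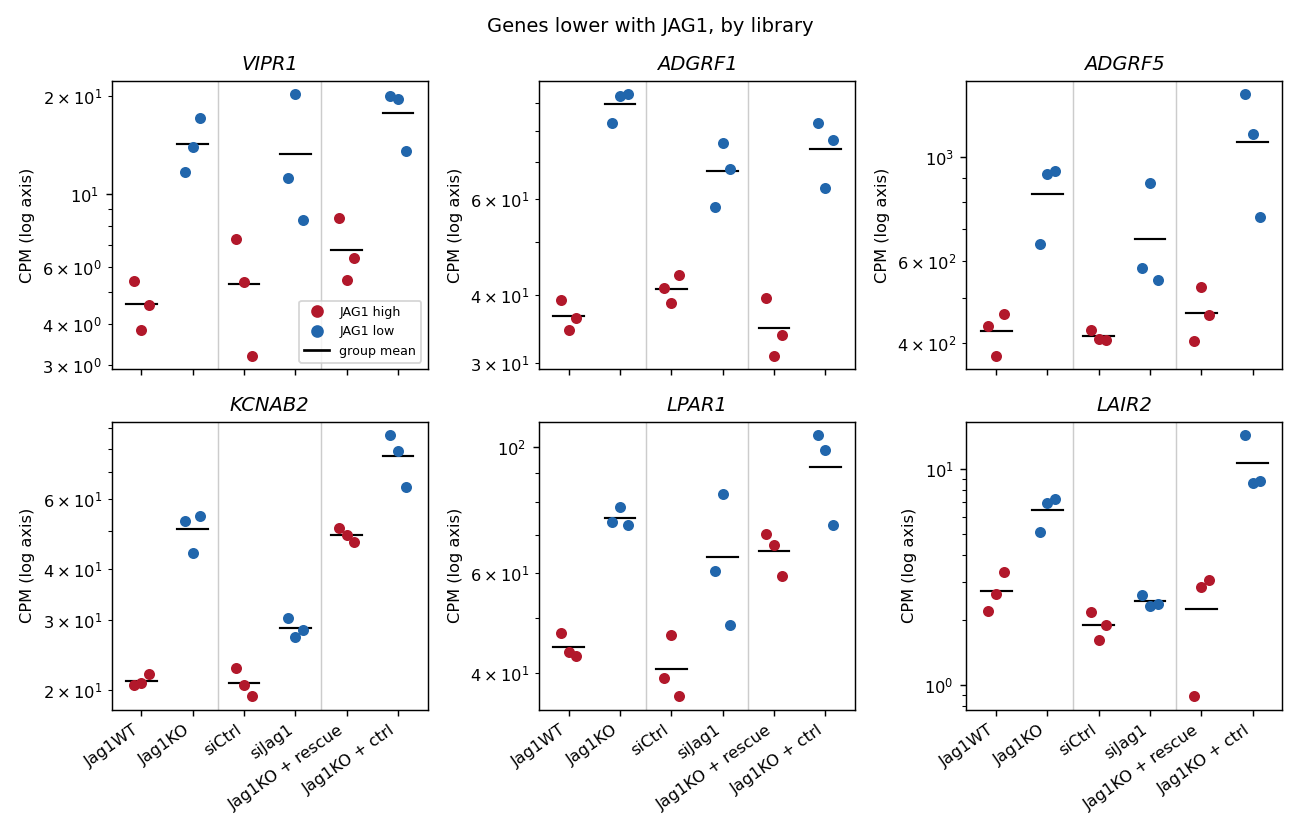
CPM of 6 genes lower with JAG1 on log axes, with 1 point per library, 3 libraries per group and a bar at the group mean. The 3 JAG1-high points lie below the 3 JAG1-low points in each system, while KCNAB2 in Jag1KO + rescue (46.8 to 50.8 CPM) lay near Jag1KO (44.0 to 54.2 CPM) and not near Jag1WT (20.6 to 22.0 CPM).

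Among the genes lower with JAG1 without overlap in any system, those with the largest differences encode receptors. ADGRF1 and ADGRF5 encode adhesion G protein-coupled receptors and lie 42769 bases apart on chromosome 6. ADGRF1 (Entrez gene 266977; 46997708 to 47042332) had 39.1, 34.4 and 36.2 CPM in Jag1WT and 82.7, 92.5 and 93.4 CPM in Jag1KO. In siCtrl it had 41.1, 38.6 and 43.5 CPM and in siJag1 57.9, 76.1 and 68.2 CPM. In Jag1KO + rescue the levels were 39.4, 30.9 and 33.8 CPM and in Jag1KO + ctrl 82.6, 62.8 and 76.9 CPM. All 9 high libraries lay below all 9 low ones, and the rescued cultures lay near Jag1WT and siCtrl. The level of ADGRF1 was 2.02-fold lower with JAG1 (log2 difference −1.01 ± 0.0905, limma adjusted p = 5.10e-06).

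ADGRF5 was abundant, with 376 to 528 CPM (median 427) in the high and 545 to 1360 CPM (median 877) in the low libraries, again without overlap. Its log2 difference was −0.93 ± 0.128 (limma adjusted p = 0.000981). VIPR1 (Entrez gene 7433), a receptor of vasoactive intestinal peptide, had 3.20 to 8.45 CPM (median 5.43) in the high and 8.32 to 20.2 CPM (median 13.9) in the low libraries. The ranges overlapped only between siJag1 replicate 3 (8.32 CPM) and Jag1KO + rescue replicate 1 (8.45 CPM). VIPR1 fell by 1.28 ± 0.161 on the log2 scale (limma adjusted p = 0.000382), with −1.44, −1.15 and −1.26 in the systems. LAIR2, a secreted receptor that binds collagens, had 0.886 to 3.33 CPM (median 2.21) in the high and 2.33 to 14.4 CPM (median 6.95) in the low libraries. The pooled log2 difference of LAIR2 was −1.04 (limma adjusted p = 0.0295), with −0.25 in the siRNA and −1.88 in the plasmid system at the extremes (interaction, limma adjusted p = 0.0461). KIR3DX1, a transcribed pseudogene 22005 bases from LAIR2 on chromosome 19, had the most negative difference (−1.55, limma adjusted p = 0.0453), but its groups overlapped in the knockout and siRNA systems.

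Further genes lower with JAG1 without overlap inside a system included KCNAB2, CNTN5, SECTM1, CPED1, AIF1L, NEXN and FAT4. KCNAB2, an auxiliary subunit of potassium channels, had 20.6, 20.8 and 22.0 CPM in Jag1WT against 52.7, 44.0 and 54.2 CPM in Jag1KO. It had 22.7, 20.6 and 19.3 CPM in siCtrl against 30.2, 27.2 and 28.3 CPM in siJag1, and 50.8, 48.6 and 46.8 CPM in Jag1KO + rescue against 86.6, 78.9 and 64.1 CPM in Jag1KO + ctrl. Both plasmid groups thus lay above the parental cultures. Its log2 difference was −0.76 ± 0.102 (limma adjusted p = 0.000785), and the systems differed (−1.21, −0.44 and −0.63, interaction, limma adjusted p = 0.0358). CNTN5, a neural cell adhesion molecule, differed by −0.79 (limma adjusted p = 0.00339). SECTM1, a secreted and transmembrane protein, had 0.848 to 2.02 CPM in the high and 2.10 to 4.97 CPM in the low libraries (−0.79, limma adjusted p = 0.0255). NEXN, which binds actin filaments, AIF1L, an actin-bundling protein, FAT4, an atypical cadherin, and CPED1 differed by −0.62, −0.63, −0.62 and −0.66 (limma adjusted p from 0.0244 to 0.0453).

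The other 7 genes lower with JAG1 are named for the same reason. GAS6 and MSLN did not overlap in any system. TRPV4, a calcium channel, differed by −1.09, PDZK1IP1 by −1.08, PRSS12, a secreted serine protease, by −0.94, and NEGR1, a cell adhesion protein, by −0.91. GAS6, the ligand of the receptor kinase AXL, had 52.9 to 74.5 CPM (median 64.4) in the high and 79.1 to 133 CPM (median 95.5) in the low libraries (log2 difference −0.59, limma adjusted p = 0.00706). MSLN, the cell surface protein mesothelin, had 2.04 to 3.98 CPM in the high and 4.11 to 7.61 CPM in the low libraries (−0.60, limma adjusted p = 0.0182). ST3GAL6, a sialyltransferase, differed by −0.59. AXL itself, at 810 to 1350 CPM, was not called (−0.06, limma adjusted p = 0.749).

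Of the gene lists of general cell state, the cell cycle genes had the most negative median, and their level moved with JAG1 in some libraries and not in others. Of 97 S phase and G2/M genes tested 0 were called by limma or edgeR, 53 had an unadjusted p below 0.05 with a negative and 1 with a positive difference, and DESeq2 called 14, all lower. An unadjusted limma p below 0.05, in either direction, was found for 2731 of all 12803 genes tested. In all, 92 of the 97 differences were negative, 90 of them in each system, and the median was −0.72 (−0.76, −0.36 and −0.97 in the knockout, siRNA and plasmid systems). The mean log2(CPM + 1) of the list was 4.14, 4.91 and 4.10 in Jag1WT and 4.11, 5.55 and 5.67 in Jag1KO. In siCtrl it was 4.18, 5.10 and 4.48 and in siJag1 4.32, 6.07 and 4.41, while in Jag1KO + rescue it was 4.18, 5.02 and 4.23 and in Jag1KO + ctrl 5.72, 6.09 and 4.41. Thus Jag1KO replicate 1, Jag1KO + ctrl replicate 3 and siJag1 replicates 1 and 3 lay in the range of the JAG1-high cultures (4.10 to 5.10). Replicate 2 had the highest level of its group in every group but Jag1KO, so the level varied with the replicate number as well.

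With the cell cycle level as a covariate 22 genes were higher and 9 lower with JAG1. Of the 49 genes 26 kept their call, 19 of the higher and 7 of the lower ones. Those were COL6A3, JAG1, HES1, KRT79, AFAP1L2, ABCA1, OTULINL, SERPINB9, ATP6V0D2, AADACP1, SLC46A3, SPHK1, CRTAM, KLRC2, PI3, SFTA1P, SLPI, F2RL1 and NTN4 among the higher, and VIPR1, ADGRF1, TRPV4, KCNAB2, ADGRF5, CNTN5 and MSLN among the lower genes. IL6, PTGES, AREG, TGFBR1, S1PR1, EPAS1, LPAR1, GAS6, LAIR2, SECTM1 and PRSS12 were among the 23 that lost it. Without Jag1KO replicate 1, Jag1KO + ctrl replicate 3 and siJag1 replicate 2, whose cell cycle level stood farthest from the rest of their group, 51 genes were higher and 52 lower, 26 and 20 of them among the 49. This setting was chosen after seeing the data. The part of growth state in the differences above was otherwise not tested.

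The other lists were read in the same way. Of 35 genes of the ATF4 and amino acid stress response 0 were called by limma (edgeR 0, DESeq2 1 higher), while 17 had an unadjusted p below 0.05. The counts of unadjusted p in this paragraph stand beside 2731 of the 12803 genes tested. All 35 differences were positive, with a median of 0.46, but the medians by system were 0.00, 0.21 and 1.05, so that the plasmid system carried most of it. PPP1R15A had 340 to 1650 CPM and SLC38A2 790 to 3280 CPM, both lowest in Jag1KO + ctrl replicate 2. The 34 genes of ER folding and heat shock (0 called by limma, 12 with an unadjusted p below 0.05) had a median of 0.18. The 35 genes of hypoxia and glycolysis (0 called, 3 with an unadjusted p below 0.05) had −0.11, with −0.61 in the plasmid system. For the 38 interferon genes (0 called, 10 below 0.05, DESeq2 1 lower) the median was −0.11 and for the 16 genes of MHC class I presentation (0 called, 8 below 0.05) 0.15. The 85 oxidative phosphorylation genes (0 called, 9 below 0.05) had a median of −0.04, the 82 ribosomal proteins (0 called, 7 below 0.05) 0.04, the 12 histones (0 called, 1 below 0.05) 0.16 and the 13 EMT and stem cell genes (0 called, 5 below 0.05, DESeq2 1 higher and 2 lower) −0.05. In the lists of this paragraph whose DESeq2 count is not given, DESeq2 called 0, and edgeR called 0 in all of those with 0 by limma. Of 40 semaphorin and guidance genes NTN4 was the 1 called by limma and by edgeR (DESeq2 1 higher and 1 lower), with a list median of −0.03. The sign of several medians turned under other settings. With the cell cycle covariate the median of the hypoxia genes was 0.16, of the interferon genes 0.04, of the TGF-beta genes −0.02 and of the EMT genes 0.06. The median of the histones turned in 3 settings, of the integrins and the ATF4 genes in 1 each, and with library totals in place of TMM those of the ribosomal proteins and of the Notch processing genes turned to −0.01 and −0.02. Markers of other cell types were not called either, and their summed levels overlapped between the high and low libraries, with 12.6 to 20.2 against 15.4 to 23.5 CPM for the endothelial and 1.23 to 3.89 against 1.95 to 5.11 CPM for the leukocyte list.

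**Figure D5:**
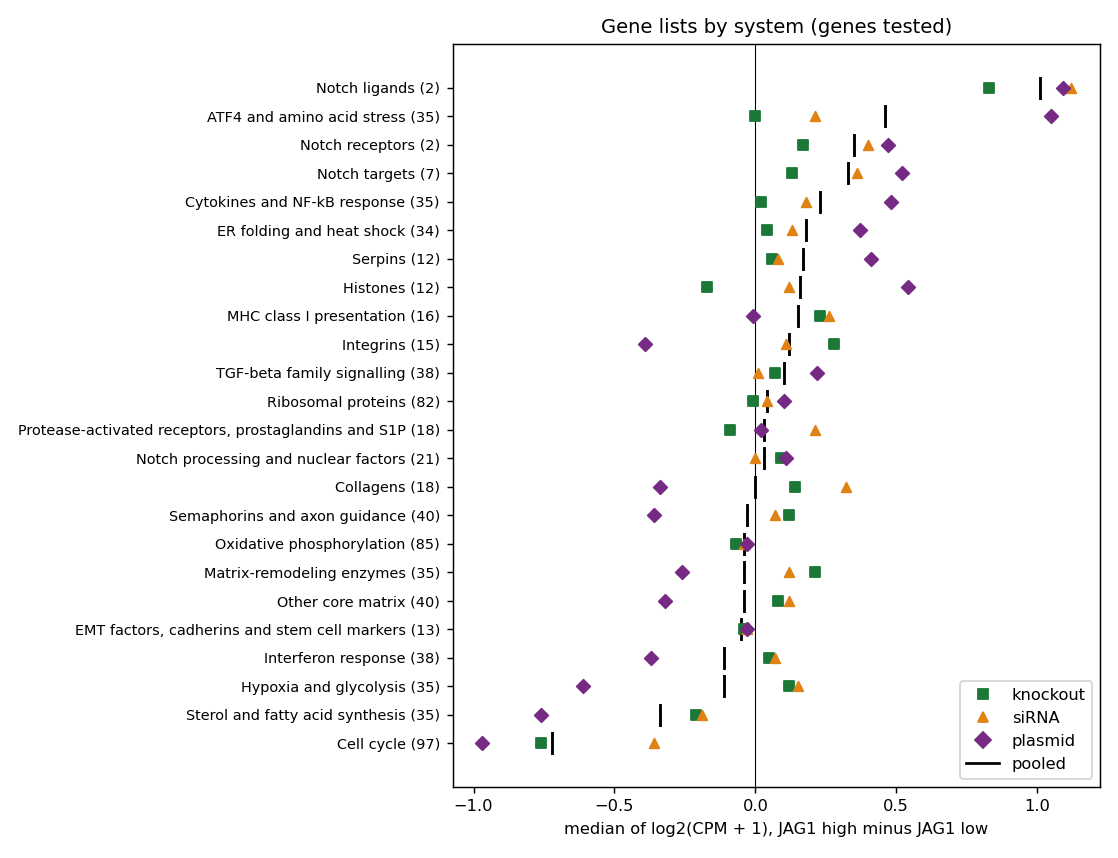
Median difference of log2(CPM + 1), JAG1 high minus JAG1 low, of each gene list in the knockout, siRNA and plasmid systems, with a bar at the pooled median and the number of genes tested in brackets. The cell cycle list lies left of 0 in all 3 systems (−0.76, −0.36 and −0.97), whereas the collagens, integrins and other core matrix genes lie right of 0 in the knockout and siRNA systems and left of it in the plasmid system.

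The test of whether the effect of JAG1 differed between the systems passed for 511 genes, 3.99% of those tested, and 4 of them were among the 49 called genes: COL6A3, PTGES, KCNAB2 and LAIR2. This count ranged from 38 (without Jag1KO + ctrl replicate 1) to 2487 (without Jag1KO + ctrl replicate 3) when 1 library was left out, and was 94 with array weights. In 422 of the 511 the knockout and plasmid systems had opposite signs. Of the 6 genes with the smallest interaction p, 5 are cancer-testis genes of the X chromosome, which are normally expressed in the testis. MAGEC1 had 4.23, 5.26 and 5.35 CPM in Jag1WT and 20.3, 19.8 and 24.7 CPM in Jag1KO. It had 5.02, 5.40 and 5.48 CPM in siCtrl and 4.65, 4.60 and 6.50 CPM in siJag1, but 92.6, 73.5 and 93.4 CPM in Jag1KO + rescue and 43.2, 43.1 and 56.9 CPM in Jag1KO + ctrl. The parental cultures were thus low with and without the siRNA, Jag1KO was above Jag1WT, and Jag1KO + rescue was above Jag1KO + ctrl (limma adjusted p = 0.00498 in the fit of 6 groups). MAGEC2, PAGE5, SPANXA1 and SPANXB1 likewise rose from the parental cultures through Jag1KO and Jag1KO + ctrl to Jag1KO + rescue. The order among the parental groups varied between genes. All 5 belong to families of related genes. The copies of the SPANX family are near-identical, so the counting could have split reads among them. CSMD1, a large membrane protein, had 0.304 to 1.03 CPM in all parental cultures and 8.35 to 19.0 CPM in all those of Jag1KO descent.

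How firmly a gene was called depended on single libraries for many of the 49. In the 18 fits that each left out 1 library, 25 of the 49 kept their call every time, 19 higher and 6 lower with JAG1. The other 24 lost it in at least 1 fit. LPAR1 lost it without siJag1 replicate 2 alone, PDZK1IP1 kept it in 16 fits, EPAS1 in 15, MSLN in 14, GJB2 and GAS6 in 12, LAIR2, OTULINL and CPED1 in 11, and SECTM1 and ATP6V0D2 in 10. NEGR1 kept it in 8 fits, AREG and AIF1L in 7, PTGES, PRSS12 and ST3GAL6 in 6, SLC46A3, FAT4 and PTK2B in 5, IL6, CRTAM and NEXN in 4 and KIR3DX1 in 3. The fit without Jag1KO replicate 3 kept 20 of the 29 higher and 9 of the 20 lower genes, whereas the fit without Jag1KO + ctrl replicate 3 kept all 29 and 20 and called 52 and 41 in all. Under the 14 other settings that had been listed for the pooled fit, 6 genes were called each time: COL6A3, JAG1, ABCA1, SERPINB9, SPHK1 and ADGRF1. These 6 were also among the 25. None of the 49 changed sign in any setting.

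Fits of 2 systems gave other counts. From the knockout and siRNA systems 60 genes were higher and 15 lower, 26 and 7 of them among the 49. From the knockout and plasmid systems 15 were higher and 14 lower, 14 and 9 of them among the 49, and from the siRNA and plasmid systems 5 were higher and 1 lower. Those 6 were COL6A3, JAG1, ABCA1, SERPINB9, SPHK1 and ADGRF1. The replicate block together with the cell cycle covariate, a setting chosen after seeing the data, kept COL6A3, JAG1 and SERPINB9 alone.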

How the data were processed

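MDA-MB-231 spheroids of 6 groups with 3 labelled biological replicates each were profiled by stranded mRNA sequencing, with 10330581 to 18327890 counted reads per library. The counts were made by the authors, per the submitters' processing notes with featureCounts on hg38 (the aligner and its version are not given in the sources used here). The deposited CPM signal was computed by the authors from these counts with edgeR 3.28.0 and TMM scaling. It equals counts times 1 factor per library, and sums to other totals than CPM without TMM. A deposited RPKM table was not used, and 3 of its columns have names that match no label. Rows without a gene symbol (292 in number, holding no more than 0.0442% of any library's counts) are not named here.

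The values log2(CPM + 1) of high and low JAG1 libraries were compared by limma 3.58.1 (R 4.3.3), whose variance prior followed the mean, with the system as a block. The test of unequal effects used the interaction of JAG1 level and system, and the fit of 6 groups gave the difference in each system. The levels of JAG1 were also compared by an exact permutation test inside the systems. P-values of the fits were adjusted over all genes tested. edgeR 4.0.16 (quasi-likelihood) and DESeq2 1.42.0 on the counts, other scalings, filters, pseudocounts, blocks, covariates and left-out libraries or systems were the alternatives. The code was tested on simulated data.

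Genes were named by this rule: JAG1, up to 12 genes per direction that were called and did not overlap inside any system, ordered by the size of the difference, up to 5 called genes of each list and, where fewer than 2 were called, its 2 genes with the highest mean CPM, and the 6 genes with the smallest interaction p. Other genes given here, the rest of the 49 called genes among them, were singled out once their values were known. A few genes that the rule selects are not reported here. The members, lists and tests were chosen with earlier results of these data known. Precision is limited by 3 libraries per group, and error estimates cover the spread between libraries only.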

Additional observations from a re-analysis of the deposited data

Results flagged for a closer look

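For 10 genes named above the effect of JAG1 level differed between the 3 systems by limma's interaction test. The values in brackets are the differences of log2(CPM + 1) in the knockout, siRNA and plasmid systems, with 3 libraries on each side.

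Among the 49 genes called in the pooled comparison, the differences of COL6A3 (3.63, 2.27 and 2.04; interaction, limma adjusted p = 0.0328) and PTGES (2.03, 0.98 and 0.19; 0.0425) were largest in the knockout. KCNAB2 (−1.21, −0.44 and −0.63) fell most in the knockout (adjusted p = 0.0358) and LAIR2 (−0.25 with the siRNA, −1.88 with the plasmid) in the plasmid system (adjusted p = 0.0461).

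The other genes were lower with JAG1 in the knockout. The 5 cancer-testis genes among them had positive differences in the plasmid system (limma adjusted p from 0.00498 to 0.0482 in the fit of 6 groups), where the groups of CSMD1 overlapped. The interaction was strongest for MAGEC1 (−1.93, 0.02 and 0.85; limma adjusted p = 6.01e-05) and CSMD1 (−2.80, −0.41 and 0.18; 6.82e-05). It was followed by MAGEC2 (−1.60, −0.07 and 0.79; 0.000381), PAGE5 (−1.47, 0.05 and 0.54; 0.00057), SPANXA1 (−1.61, 0.08 and 0.49; 0.00112) and SPANXB1 (−1.15 in the knockout and 0.40 in the plasmid system; 0.00112). Why the systems differed was not tested.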

How the results depend on the processing

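None of the 49 called genes changed sign under any alternative run, and the JAG1 difference stayed called, between 1.71 (knockout and siRNA systems) and 1.99 (cell cycle covariate). Over the 48 other called genes and the other settings, 1119 of 1521 values kept their side of the thresholds and 402 lost it. Counts of genes higher and lower with JAG1 were 29 and 20. Both stayed within 1.5 times with edgeR (27 and 30), library totals in place of TMM (22 and 24), median-ratio size factors (29 and 20), a pseudocount of 0.25 CPM (29 and 26), no filter (29 and 15) and array weights (37 and 17).

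DESeq2 called 58 higher (56 with 1 sign in the 3 systems) and 212 lower (204). Without the system block they were 15 and 8, and with the cell cycle covariate 9 were lower. A filter of 5 CPM left 13 lower, and dropping the fold threshold gave 36 lower. Counts were 5 and 1 from the siRNA and plasmid systems, 15 higher from knockout and plasmid, and 60 higher from knockout and siRNA. Leaving out 1 library gave 20 to 52 higher and 9 to 41 lower genes, and 38 (without Jag1KO + ctrl replicate 1) to 2487 (without Jag1KO + ctrl replicate 3) genes whose effect differed between the systems, in place of 511. JAG1 ranged from 1.82 to 1.95 in these fits. That last count was 1429 with DESeq2, 258 with no filter, 94 with array weights and 2312 with the cell cycle covariate. The cause of these shifts was not tested.

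Replicates with 1 number deviated from their group means together in most but not all pairs (correlations of 0.634, 0.67 and −0.0101 in the knockout, 0.543, 0.523 and 0.263 in the siRNA and −0.213, 0.341 and 0.24 in the plasmid system), so the numbers were not taken as pairs. Still, 13 of 18 libraries correlated best with a library of their own number. With a replicate block 28 genes were higher and 21 lower, 22 and 15 of them among the 49, and 776 differed between the systems. The last settings were chosen after seeing the data. Without 3 libraries of unusual cell cycle level, 51 genes were higher and 52 lower (51 and 49 with 1 sign in all systems) and 4440 differed between the systems, while the replicate block with the cell cycle covariate left 3 higher (COL6A3, JAG1 and SERPINB9), 0 lower and 1784 that differed.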
